A study of Mus musculus with 4 samples.

Results

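The histone cluster genes of the mouse are the short genes for the linker histone H1 and the core histones H2A, H2B, H3 and H4, most of which lie together on chromosomes 13 and 3. The set examined here held the 68 protein-coding genes of a GRCm38 gene table whose symbols begin with H1f, H2ac, H2bc, H3c, H4c or H4f followed by a digit, out of 21779 protein-coding genes. They comprised 10 H1, 17 H2A, 16 H2B, 12 H3 and 13 H4 genes. The cluster on chromosome 13 held 53 of them and the cluster on chromosome 3 held 10. The other 5 were H1f8, H1f10 and H4f16 on chromosome 6 and H1f0 and H1f7 on chromosome 15. The rule uses the symbol alone, though the set was proposed with earlier results of these data known.

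RUVBL2 is an AAA+ ATPase that works with RUVBL1 in chromatin remodelling complexes such as INO80, SRCAP and TIP60, which exchange histone variants or acetylate histones. Most clustered histone genes are replication-dependent. They lack introns, are transcribed chiefly in S phase, and give mRNAs that end in a stem-loop in place of a poly(A) tail. The linker histones H1.0 (H1f0) and H1.10 (H1f10) are encoded by single genes whose expression does not depend on replication. H1.0 accumulates in differentiated cells such as neurons.

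Chromatin from the hypothalamus of wild-type male C57BL/J mice, 8 weeks old, was immunoprecipitated with an antibody against RUVBL2 and sequenced (ChIP-seq). The 4 libraries were 2 RUVBL2 ChIP libraries and 2 input libraries, numbered 1 and 2 in each group; no treatment or second genotype was included. No label tells if replicates 1 and 2 were different animals, pools or repeats, so their agreement may be technical. The measurements were the peaks called by the authors in each ChIP library, 3943 in replicate 1 and 6403 in replicate 2 (the list of 6403 was assigned by its GEO sample; its peak names begin with Hyp3, where the title begins with Hyp2). Values of the input libraries were not analysed here. Since the tissue was bulk hypothalamus, a peak does not tell in which cells RUVBL2 was bound.

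A gene was said to hold a peak where the peak's midpoint lay within 3 kb of either end of the gene. Peaks of the 2 lists that overlapped by at least 1 bp were joined into a shared region, of which there were 3111 in the genome. Fold enrichment is the authors' value at the peak summit over the background their peak caller estimated. The number of fragments piled up at the summit was recovered from the deposited fold and p-value, and the 95% intervals are exact Poisson intervals of that pileup, which cover counting error only. The median peak had a fold of 4.93 and a pileup of 16 in replicate 1, and a fold of 4.74 and a pileup of 22 in replicate 2, and the weakest peaks had pileups of 10 and 11. Folds and ranks were read within each list, because the lists differ in length.

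The promoter windows of 4 members are shown because the shared regions differ in how they sit relative to them: the peaks of H2ac18 and of H1f0 run into the window, that of H1f2 lies beyond the other end of its gene, and H2ac19 is a near copy of H2ac18 with no peak. In replicate 1 the H1f0 peak enters its window by 2 bases only. Each window spans 250 bases before to 50 bases after the annotated start, on the coding strand, from RefSeq annotation of GRCm38.p6. The windows lie at chr3:96245247-96245546 on the plus strand (H2ac18), chr3:96240325-96240624 on the minus strand (H2ac19), chr15:79027962-79028261 on the plus strand (H1f0) and chr13:23738557-23738856 on the plus strand (H1f2). Capitals mark the motifs searched, on either strand.
H2ac18: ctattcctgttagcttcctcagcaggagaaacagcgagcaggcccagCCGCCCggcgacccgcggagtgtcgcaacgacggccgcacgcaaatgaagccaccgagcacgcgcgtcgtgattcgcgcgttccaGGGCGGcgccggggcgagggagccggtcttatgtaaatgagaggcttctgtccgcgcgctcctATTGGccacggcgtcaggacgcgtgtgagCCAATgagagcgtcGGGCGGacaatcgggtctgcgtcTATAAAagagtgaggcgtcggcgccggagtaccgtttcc
H2ac19: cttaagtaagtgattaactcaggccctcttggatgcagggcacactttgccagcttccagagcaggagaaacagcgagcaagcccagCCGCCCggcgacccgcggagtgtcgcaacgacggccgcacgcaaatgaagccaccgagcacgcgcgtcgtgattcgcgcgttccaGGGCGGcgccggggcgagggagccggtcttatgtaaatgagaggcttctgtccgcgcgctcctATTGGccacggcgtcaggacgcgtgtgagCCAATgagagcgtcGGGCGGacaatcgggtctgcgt
H1f0: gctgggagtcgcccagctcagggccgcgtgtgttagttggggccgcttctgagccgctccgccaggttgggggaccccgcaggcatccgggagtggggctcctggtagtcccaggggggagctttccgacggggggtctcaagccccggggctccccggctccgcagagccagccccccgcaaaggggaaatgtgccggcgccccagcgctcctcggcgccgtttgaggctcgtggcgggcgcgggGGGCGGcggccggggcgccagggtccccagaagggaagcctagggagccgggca
H1f2: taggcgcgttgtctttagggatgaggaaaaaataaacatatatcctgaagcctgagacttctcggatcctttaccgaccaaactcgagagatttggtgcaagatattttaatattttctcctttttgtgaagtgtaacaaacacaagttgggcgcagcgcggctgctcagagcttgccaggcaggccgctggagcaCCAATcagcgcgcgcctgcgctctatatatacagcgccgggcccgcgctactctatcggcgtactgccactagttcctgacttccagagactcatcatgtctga

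RUVBL2 regions found in both replicates lay at 6 of the 68 histone genes, H1f0, H1f2, H1f10, H2ac18, H3c14 and H4f16. This was 8.82% of the members (exact Clopper-Pearson 95% interval 3.31% to 18.2%), against 16% of all protein-coding genes. Replicate 1 had a peak at 7 members, against 19.4% of all protein-coding genes, and replicate 2 at 14 members, against 30.4% of all protein-coding genes. The replicate 1 share was 10.3% (4.24% to 20.1%), and that of replicate 2 was 20.6% (11.7% to 32.1%). No peak of either list lay within 3 kb of 53 members. All 3 shares were below those of the whole gene table. The members' intervals nevertheless include the all-gene shares, as does that of the shared regions. No test was made across genes, since neighbouring genes share regions.

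Histone genes are short, with a median length of 494.5 bp against 17217 bp for all protein-coding genes, so the windows around their 2 ends largely coincide. Among members of at most 1 kb, 4 of 59 (6.78%) held a shared region, against 0.73% of the 1507 other protein-coding genes of that length. In replicate 1 the count was 5 of 59 against 1.13%, and in replicate 2 it was 11 of 59 against 1.59%. Many short genes of the table encode olfactory, vomeronasal or taste receptors. With these left out, a choice made after the data were seen, 2.16% of 510 short genes held a shared region. In the same 510 genes the share was 3.33% for replicate 1 peaks and 4.71% for replicate 2 peaks. The intervals of the short members ran from 1.88% to 16.5% for shared regions, from 2.81% to 18.7% for replicate 1 and from 9.69% to 30.9% for replicate 2. The first and the second include the share of the 510 genes, and the last lies above it. These intervals treat genes as independent, though several of the 11 genes in replicate 2 were counted from the same peaks. They are therefore too narrow, and no difference was tested.

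**Figure D1:**
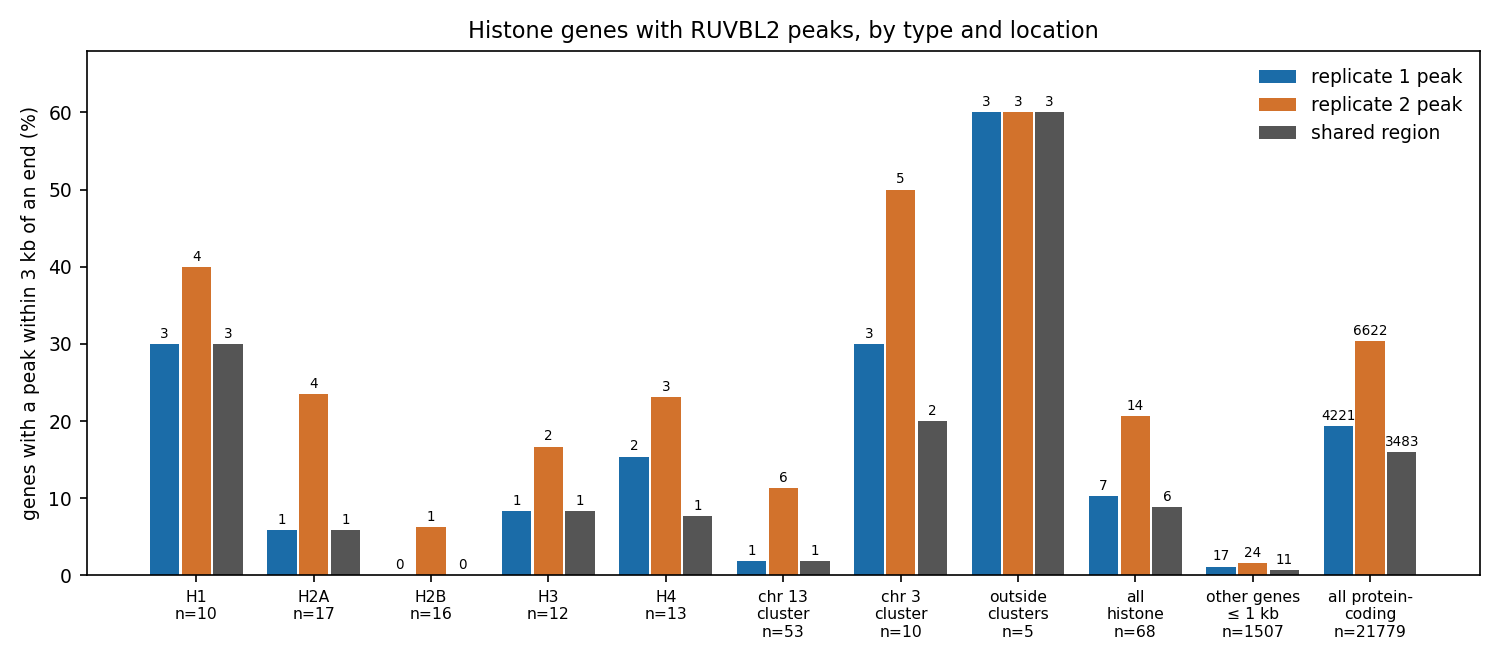
The percent of genes (vertical axis) with a peak of replicate 1, a peak of replicate 2 or a shared region within 3 kb of a gene end, by histone type, by location and for 2 backgrounds, with the number of genes above each bar. The 16 H2B genes have no shared region, the genes outside the clusters have 3 of 5, and all protein-coding genes have 16%.

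By type, the share of genes with a shared region was highest among the linker histone genes, with wide intervals. Among H1 genes, 3 of 10 held one (30%, interval 6.67% to 65.2%), against 1 of 17 H2A, 1 of 12 H3 and 1 of 13 H4 genes. The core histone intervals reached 28.7%, 38.5% and 36%, so they overlap that of H1 widely. Of all protein-coding genes, 16% held a shared region. Outside the clusters 2 of the 4 H1 genes held one, and in the chromosome 13 cluster 1 of the 6 did. The only core histone gene outside the clusters, H4f16, also held one. Histone type and location can therefore not be told apart. None of the 16 H2B genes held one, which allows a share of up to 18.8% by a limit of 3 counts, or up to 20.6% by the exact interval. In single lists the counts were 3 and 4 of the H1 genes in replicates 1 and 2, 1 and 4 of the H2A genes, 0 and 1 of the H2B genes, 1 and 2 of the H3 genes, and 2 and 3 of the H4 genes. These are to be read against the 19.4% of all protein-coding genes with a peak in replicate 1 and the 30.4% in replicate 2.

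By location, most genes of the chromosome 13 cluster were without a peak. Of its 53 histone genes, 1 held a shared region (1.89%, interval 0.0478% to 10.1%), 6 had a peak in replicate 2 (11.3%, interval 4.27% to 23%) and 47 had none. Both intervals lie below the shares of all protein-coding genes, 16% for shared regions and 30.4% for replicate 2. The genes of this cluster are short, with a median of 488 bp. Both intervals include the shares of the other genes of at most 1 kb without receptor genes, 2.16% and 4.71%. They also treat genes as independent, though neighbouring genes were counted from the same replicate 2 peaks. The cluster falls into 2 blocks. The block at chr13:21715711-22043658, with 22 histone genes over 328 kb, had no member with a peak in either list, which allows a share of up to 13.6% by 3 counts, or up to 15.4% by the exact interval. The nearest peak to these 22 genes lay 185 to 512 kb away in replicate 1 and 90.1 to 204 kb away in replicate 2. The block at chr13:23531044-23934913 held 31 histone genes over 404 kb and the only shared region of the cluster, at H1f2. All 14 H2B genes of the chromosome 13 cluster were without a peak in both lists, which allows a share of up to 21.4% by 3 counts, or up to 23.2% by the exact interval.

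The other genes of the same stretch were no richer in peaks. Between the first and last histone gene on chromosome 13 lay 51 other protein-coding genes, 36 of them vomeronasal receptor genes of the Vmn1r family. None of the 51 held a shared region, which allows a share of up to 5.88% by 3 counts, or up to 6.98% by the exact interval. Of all protein-coding genes, 16% held one. The Vmn1r genes are of the receptor class left out of the short-gene comparison above, and the share without them was not computed here. The zinc finger gene Zfp184 had a peak in replicate 2 only, and Abt1, an activator of basal transcription, had one in replicate 1 only; both were named after their values were seen.

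The shorter chromosome 3 cluster spans 50.3 kb at chr3:96219885-96270192 and holds 10 histone genes and no other protein-coding gene. A shared region lay near 2 of the 10 genes, H2ac18 and H3c14, a replicate 1 peak near 3 and a replicate 2 peak near 5, leaving 4 genes with none. The shares of 20%, 30% and 50% stand beside 16%, 19.4% and 30.4% of all protein-coding genes, and 3 of the 5 genes with a replicate 2 peak are counted from the same pair of peaks. Of the 5 genes outside the clusters, H1f0, H1f10 and H4f16 held a shared region and H1f7 and H1f8 had no peak. These groups are small, and the intervals of their shared-region shares ran from 2.52% to 55.6% on chromosome 3 and from 14.7% to 94.7% outside the clusters.

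**Figure D2:**
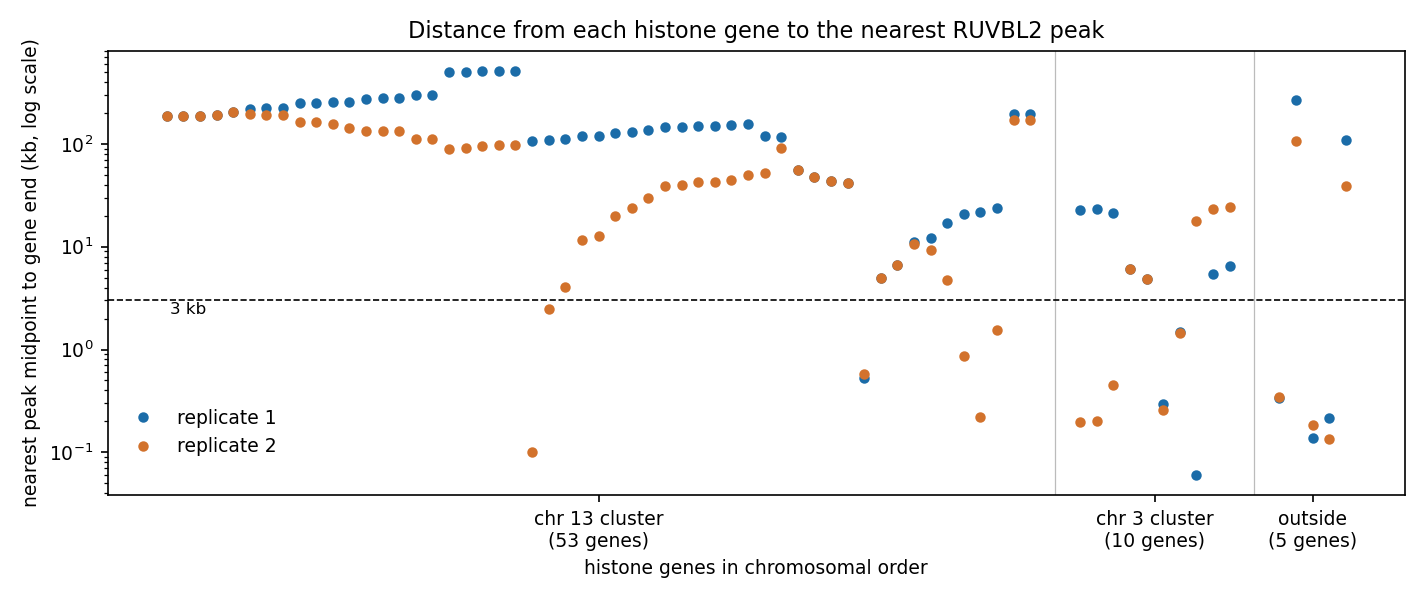
Distance in kb, on a log scale, from the end of each histone gene to the nearest peak midpoint in each list, with genes in chromosomal order within each location and the 3 kb limit dashed; where both points fall together the replicate 2 point covers the other. The first 22 genes of the chromosome 13 cluster all lie at 90.1 kb or more, while 6 later genes of that cluster, 6 of the 10 in the chromosome 3 cluster and 3 of the 5 outside have a point below 3 kb.

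H1f2, which encodes a replication-dependent linker histone, had the peak of best rank by p-value among the members in each list. In replicate 1 its fold was 8.4 (interval 5.72 to 11.9), with a pileup of 29. In replicate 2 the fold was 6.08 (4.08 to 8.75), with a pileup of 27. By fold it was first among members in replicate 1, while in replicate 2 the peak at H2ac18 had the higher fold. In its own list the peak ranked 141 of 3943 by p-value in replicate 1 and 1391 of 6403 in replicate 2. The replicate 1 interval lies above the median fold of that list, 4.93, while the replicate 2 interval includes the median of its list, 4.74. The shared region, chr13:23739839-23740361, covered no base of the gene, which runs from 23738807 to 23739531 on the plus strand. Its peaks were centred 532 and 577 bp beyond the 3′ end, and the summits lay 1351 and 1279 bp downstream of the start in replicates 1 and 2. No other gene of the table, of any biotype, had an end within 3 kb of this region.

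H1f0, the gene of linker histone H1.0, carried a shared region over its start, which only the replicate 2 peak covered. The fold was 4.54 (2.71 to 7.21) in replicate 1 and 4.07 (2.59 to 6.13) in replicate 2, with pileups of 16 and 21. Both values were below the medians of their lists: 36.4% of replicate 1 peaks and 26.7% of replicate 2 peaks had a lower fold. The summits lay 255 and 187 bp downstream of the start, inside the gene. The replicate 2 peak also covered 108 bases of the promoter window printed above. The replicate 1 peak began downstream of the start and covered 2 bases of that window. The region chr15:79028154-79028601 was 2496 bp from an end of Gcat, which encodes an enzyme of threonine breakdown, so Gcat was counted with the same region; the non-coding gene Gm17753 was 2423 bp away.

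H1f10, the gene of linker histone H1.10, and H4f16, an H4 gene that stands apart from the clusters, had peaks that ranked lower by p-value than that of H1f0 in each list. At H1f10 the fold was 3.7 (2 to 6.37) in replicate 1 and 4.11 (2.37 to 6.72) in replicate 2, with pileups of 11 and 14. At H4f16 it was 3.7 (2 to 6.37) and 3.66 (2.35 to 5.46), with pileups of 11 and 22. In replicate 1 both peaks ranked 3674 of 3943, against 2253 for H1f0, and in replicate 2 H1f10 ranked 5278 and H4f16 4685 of 6403, against 4130 for H1f0. The H1f10 peaks lay wholly inside the gene, with midpoints 337 and 343 bp downstream of the start in replicates 1 and 2, and the region was chr6:87980962-87981316. The H4f16 peaks, in chr6:136803957-136804348, had midpoints 298 and 251 bp downstream of the start. No other protein-coding gene had an end within 3 kb of either region, and the non-coding gene Gm5577 ended 544 bp from that of H1f10.

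H2ac18 and H3c14, an H2A and an H3 gene on chromosome 3, were counted with 1 and the same region, chr3:96245066-96245379. Its fold was 4.32 (2.44 to 7.16) in replicate 1 and 6.31 (4.06 to 9.41) in replicate 2, with pileups of 13 and 22. The peaks were centred 292 and 260 bp upstream of the H2ac18 start, against 1480 and 1448 bp upstream of the H3c14 start. Given to the nearest gene end alone, the region belongs to H2ac18 and no H3 gene keeps a shared region. The peaks entered the H2ac18 promoter window printed above by 97 and 133 bases in replicates 1 and 2.

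The part of this region inside the H2ac18 promoter window has a near copy at H2ac19. That part made up 97 of the 278 bp of the replicate 1 peak and 133 of the 286 bp of the replicate 2 peak. The rest of the region, upstream of the window, was not compared. The promoter windows of H2ac18 and H2ac19 matched at 251 of 256 aligned bases (98%), and those of H3c14 and its partner H3c15 at 284 of 285 (99.6%). Under the replicate 1 peak, 88 of 93 aligned window bases were identical between H2ac18 and H2ac19, and under the replicate 2 peak 124 of 129. The last base that differed lay at position 41 of the H2ac18 window, counted from 1 at its 5′ end. No peak lay within 3 kb of H2ac19 or H3c15: the nearest was 4830 and 4862 bp from H2ac19 in replicates 1 and 2, and 6077 and 6109 bp from H3c15. The sources used here do not give how the authors' aligner placed reads that match more than 1 copy, and the difference between these copies is uncertain. The same limit holds for H2ac23 and H2ac24, whose windows were identical over 200 aligned bases, and for H4c17 and H4c18, identical at 298 of 299; none of these 4 genes had a peak.

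**Figure D3:**
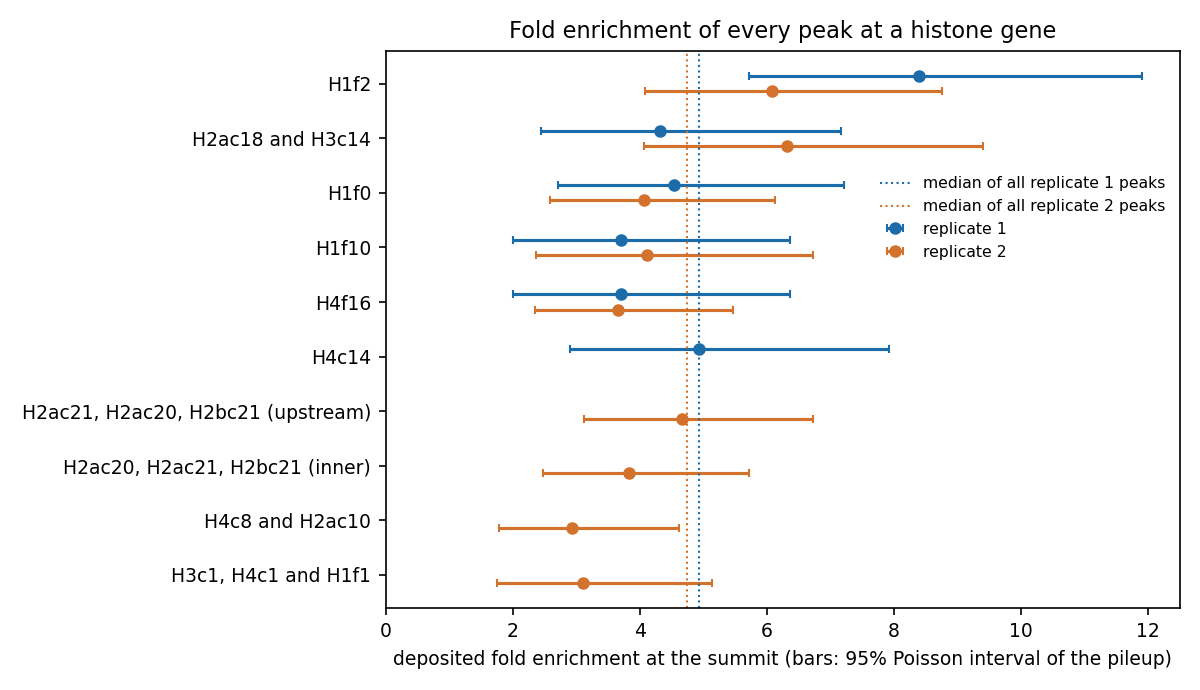
Deposited fold enrichment at the summit of every peak within 3 kb of a histone gene, with points for each replicate, bars for the 95% Poisson interval of the pileup and dotted lines for the median of each list. The replicate 1 peak at H1f2, at 8.4, is the one point whose bar lies wholly above its list's median, and the replicate 2 peak at H4c8 and H2ac10, at 2.94, lies wholly below.

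The remaining 9 members with a peak had it in 1 library only. H4c14, an H4 gene on chromosome 3, had a peak in replicate 1 with a fold of 4.93 (2.9 to 7.93), at chr3:96263037-96263476, that covered its end. The nearest replicate 2 peak was 17697 bp away. The other 8 genes had a peak in replicate 2, whose list is the longer, and all 4 regions involved were near more than 1 histone gene.

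On chromosome 3, a broad replicate 2 peak at chr3:96219259-96220118 had a fold of 4.67 (3.13 to 6.72) and a pileup of 27. It covered the whole promoter window of the H2A gene H2ac21, with its summit 49 bp downstream of the start. A second one at chr3:96220393-96220839, with a fold of 3.83 (2.47 to 5.72), lay almost wholly in the neighbouring H2A gene H2ac20. The H2B gene H2bc21 was 1383 and 456 bp from their midpoints, and this is the one H2B gene counted with a peak. The nearest replicate 1 peak to these 3 genes lay 21466 to 23112 bp away.

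On chromosome 13, both single-library peaks were among the weakest of the replicate 2 list. The peak at chr13:23531243-23531512 ranked 6176 of 6403, with a fold of 2.94 (1.78 to 4.62), and lay mostly within the H4 gene H4c8. It was counted also for the H2A gene H2ac10, 2497 bp away. The peak at chr13:23761903-23762314 ranked 6301 of 6403, with a fold of 3.1 (1.75 to 5.14). It lay inside the H3 gene H3c1 and was counted also for the H4 gene H4c1 at 859 bp and the linker histone gene H1f1 at 1559 bp.

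**Figure D4:**
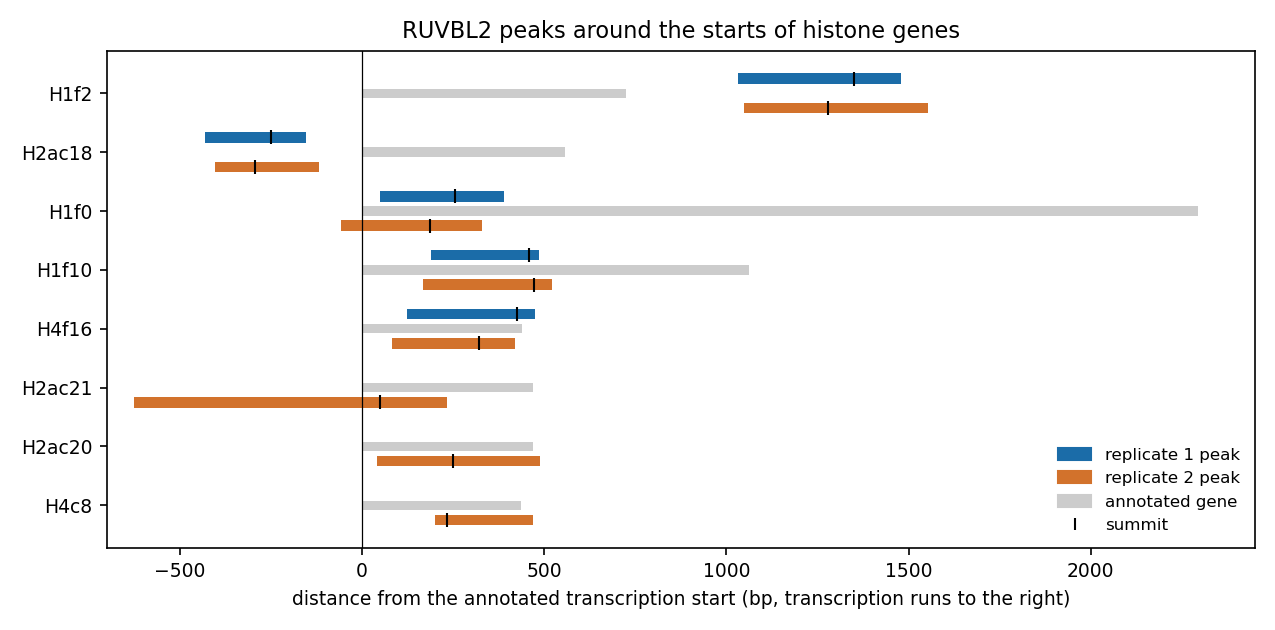
Peaks (coloured bars, with summits as black ticks) and annotated genes (grey) by distance in bp from the annotated start, with transcription running to the right, for the members that have a known start and are nearest to a peak. The H2ac18 peaks lie upstream of the start, the H1f10 and H4f16 peaks lie downstream of it, and the H1f2 peaks lie beyond the end of the gene.

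No member lay close to the 3 kb limit. Just inside it lay H2ac10, at 2497 bp from a replicate 2 peak, and then H1f1 at 1559 bp. Just outside it lay H3c8, at 4040 bp in replicate 2, H4c2, at 4722 bp in replicate 2, H2ac19, at 4830 bp in replicate 1, and H3c3, at 4979 and 4934 bp in replicates 1 and 2. Over the 53 members without a peak, the median distance to the nearest one was 152 kb in replicate 1 and 56.1 kb in replicate 2. The 5 members known for expression in germ cells, H1f6, H1f7, H1f8, H2ac1 and H2bc1, were all without a peak within 3 kb in both lists. In each list this allows a share of up to 60% by 3 counts, or up to 52.2% by the exact interval. Of the 21779 protein-coding genes, 14515 had no peak in either list.

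The promoter windows of the histone genes carried the motifs known for this family. Of the 68 members, 63 had an entry in the promoter table, giving 64 windows; the others were H2bc21, H4c14, H3c7, H3c1 and H2bc4. The motifs were searched on both strands and none contains another. CCAAT, bound by NF-Y, was present in 52 of the 64 windows (81.2%), against 38.2% of all 21263 protein-coding windows. The TATA box, searched as TATAAA, was present in 53.1% of the histone windows, against 12.6% of all. The octamer ATTTGCAT, bound by Oct-1, was found in 6 H2A and 7 H2B genes' windows, 20.3% of the histone windows, against 1.66% of all. The GC box GGGCGG, bound by Sp1, was found in 40.6% of the histone windows, against 46.2% of all. By type, every H2A, H2B and H3 window held a CCAAT, whereas 25% of the H4 windows did, and 75% of the H4 windows held a GC box. Windows of neighbouring H2A and H2B genes on opposite strands can overlap. Those of H2ac12 (chr13:22035594-22035893) and H2bc12 (chr13:22035571-22035870) do so. A motif in such an overlap is counted in both windows, so the counts are of windows and not of separate sites.

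The 6 windows of members with a shared region are described beside the 52 of members without a peak, with no test. Of the 6 with a shared region, 5 held a GC box and none held the octamer, against 18 and 12 of the 52 windows of members without a peak. A CCAAT was present in 3 of the 6, against 44 of the 52, and the TATA box in 1 of the 6, against 29 of the 52. The mean GC content was 63.8% in the 6 windows, against 46% in the 52. Over all protein-coding genes with a shared region it was 62.5%, against 56.2% in all windows, and 66.5% of their windows held a GC box. The GC content was 77.7% at H1f10, 75% at H1f0, 72.7% at H3c14 and 64.7% at H2ac18, but 50.3% at H1f2 and 42.7% at H4f16, so the 6 were not alike. H3c14 is counted through the region at H2ac18, whose peaks do not reach the H3c14 window. The peaks at H1f2, H1f10 and H4f16 did not reach the windows of these genes either. At H1f0 the peaks covered 2 and 108 bases of the window in replicates 1 and 2. The windows are thus mostly not the sequence under the peaks. Among members without a peak, H3c15 had a GC content of 72.7% with 6 GC boxes and H2ac19 one of 63.7% with 3, like their copies H3c14 and H2ac18. The part of GC content in whether a peak was called was not tested, and a motif match is a description of the sequence, not of binding.

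**Figure D5:**
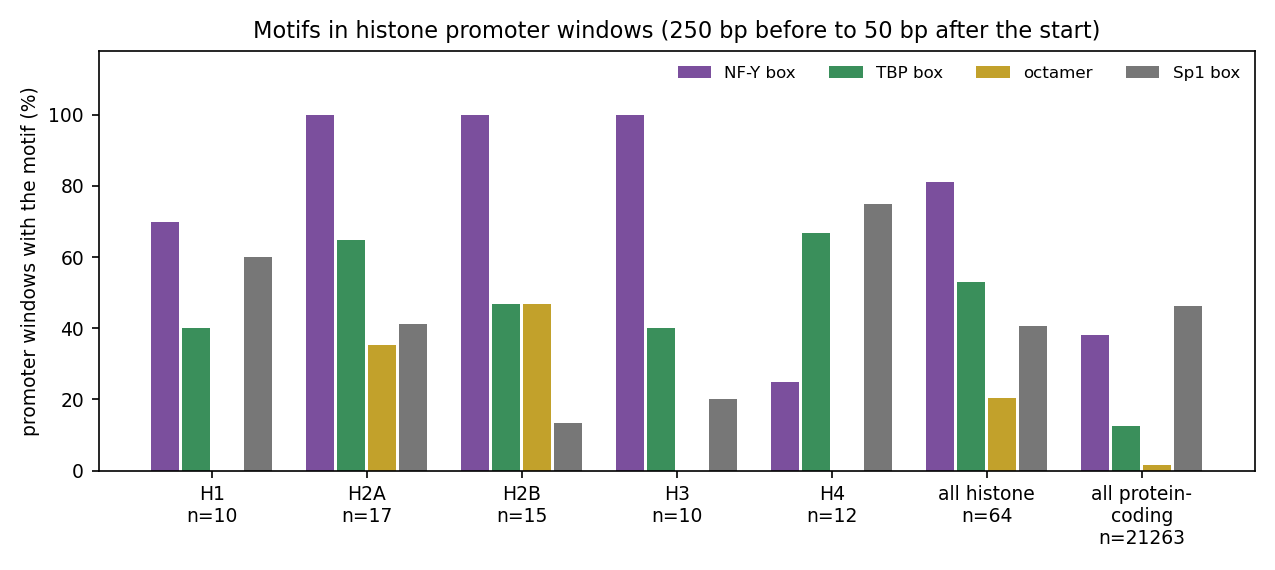
The percent of promoter windows (vertical axis) that hold the motif of NF-Y, of TBP (the TATA box), of Oct-1 (the octamer) or of Sp1 (the GC box), by histone type, over all histone genes and over all protein-coding genes, with the number of windows below each group. The NF-Y motif is in 100% of the H2A, H2B and H3 windows and in 25% of the H4 windows, against 38.2% of all.

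Genes of replication-independent histone variants are not part of the clusters and served for comparison. Of 9 such genes, 4 held a shared region (44.4%, interval 13.7% to 78.8%), 5 had a replicate 1 peak and 7 had a replicate 2 peak. The shared-region interval includes the 16% of all protein-coding genes, whose shares in replicates 1 and 2 were 19.4% and 30.4%. H3f3a, which encodes the variant H3.3, had folds of 6.61 (4.5 to 9.4) and 5 (3.33 to 7.24) in replicates 1 and 2. H3f3b, the other H3.3 gene, had folds of 4.03 and 2.74, with the peaks 1712 and 1797 bp from its end. H2ax, whose product marks DNA breaks when phosphorylated, had folds of 3.08 (1.71 to 5.21) and 4.46 (2.99 to 6.42), and Macroh2a2, which encodes a macroH2A, had folds of 5.88 and 6.14. H2az1, a gene of H2A.Z, had a peak in each list, with folds of 4.87 and 4.66, but the peaks did not overlap. H2az2, the other H2A.Z gene, and Macroh2a1 had a peak in replicate 2 only, with folds of 4.82 and 5.21. H2aj, which lies near H4f16, and Cenpa, the gene of the centromeric H3, had none within 3 kb.

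Genes that act on histone mRNAs and on histone deposition were counted from lists as well. Of 16 genes for histone mRNA transcription and processing, 4 held a shared region (25%, interval 7.27% to 52.4%), 5 had a peak in replicate 1 and 8 in replicate 2. That interval includes the 16% of all protein-coding genes, and the single-list counts stand beside 19.4% and 30.4% of all genes. Nfya, a subunit of the CCAAT-binding NF-Y, had folds of 5.09 and 8.73 in replicates 1 and 2, at a region whose nearest gene end was that of Oard1, and a second shared region was nearest to Nfya itself. Cpsf2, of the histone mRNA cleavage complex, had 5.36 and 5.97, and Sympk, a scaffold of cleavage factors, had 4.62 and 3.91. Pou2f1, which encodes Oct-1, the factor that binds the octamer, had 3.7 and 6.37. Npat, the coactivator that marks histone loci, had no peak within 3 kb, and Slbp, which binds the stem-loop of histone mRNAs, had one in replicate 2 only, with a fold of 4.63; both were named after their values were seen.

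Of 23 genes for histone chaperones and deposition, 8 held a shared region (34.8%, interval 16.4% to 57.3%), 11 had a peak in replicate 1 and 16 in replicate 2. That interval lies just above the 16% of all protein-coding genes, which is a description and not a test. The single-list counts stand beside 19.4% of all genes in replicate 1 and 30.4% in replicate 2. With a 1 kb window the shared-region count was 6 of 23, against 13.9% of all genes. With regions counted for the nearest gene alone it was 6 of 23, against 12.7%. No interval was computed for these counts, so whether they lie above the all-gene shares was not tested. The list was also chosen with earlier results of these data known. Rbbp4, which encodes a histone-binding subunit of the CAF-1 and other complexes, had folds of 10.8 (7.63 to 14.8) and 8.67 (6.5 to 11.3), though Zbtb8os was the gene with the nearest end. Ubn2, of the H3.3-depositing HIRA complex, had 7.71 and 7.08, Nap1l4, a nucleosome assembly protein, had 5.55 and 4.04, and Asf1a, an H3-H4 chaperone, had 4.37 and 7.68.

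Of 23 genes of DNA replication and S phase, 1 held a shared region. It was Rrm1, which encodes the large subunit of ribonucleotide reductase, with folds of 6.03 and 4.3 in replicates 1 and 2. The shared count was 4.35% of the list (interval 0.11% to 21.9%), against 16% of all protein-coding genes. In replicate 1, 1 gene had a peak, against 19.4% of all genes, whereas in replicate 2, 9 genes had one (39.1%, interval 19.7% to 61.5%), against 30.4% of all genes. Of the markers of dividing cells, Pcna, Mcm4, Mcm5 and Mcm7 had a peak in replicate 2 only, with folds of 4.44, 6.24, 4.14 and 6.95, and Mki67, Top2a, Mcm2, Mcm3, Mcm6 and Rrm2 had none within 3 kb in either list. Peaks do not measure expression, so the level of histone or replication transcripts in this tissue was not tested.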

How the data were processed

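Peaks were called by the authors in each RUVBL2 ChIP library; the submitters' processing notes name the build GRCm38 and, with no order, ChIPseeker, MACS2 2.1.0, Bowtie2 2.3.4.1, Trimmomatic 0.33 and bcl2fastq 2.17. Not given in the sources used here were their settings, the peak caller's control and the treatment of reads matching several places. Fixation was with 1% formaldehyde for 10 min, amplification ran for 15 cycles, and paired reads of 150 bp were taken, per the labels' protocols. The deposited peak lists give a fold enrichment, a −log10 p and a −log10 q per peak, and the deposited score is the −log10 q times 10 without its decimals. Replicate 1 went down to a −log10 q of 1.32 and replicate 2 to 1.34. The deposited summit lists repeat the summit positions and the −log10 q.

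From these, the summit pileup was solved from fold and −log10 p (a whole number within a relative tolerance of 0.0001 for 100% of peaks), as a measure of depth, since total read numbers were not used here; the step was tested on simulated data. Reads amplified by PCR are not independent molecules, so intervals and limits cover counting error only. Genes came from a RefSeq table of GRCm38.p6; pseudogenes with histone symbols were left out. A cluster joined members at most 2 Mb apart, a block members at most 250 kb apart. Text names every member with a peak, every other protein-coding gene within 3 kb of such a region, up to 4 genes per list by the worse of their ranks, and all listed variants; exceptions are stated. Members and lists were chosen with earlier results of these data known. For groups of protein-coding genes, a share of 0 in the main counts is given with the limit that 3 counts would set. Promoter windows were aligned with biopython 1.88; other steps used python 3.11.15, pandas 2.3.3, numpy 2.4.6 and scipy 1.17.1. Alternatives were windows of 1 kb and 10 kb, placing peaks by edge or summit, a −log10 q of at least 5, the top 1000 peaks, assignment to the nearest gene end, an overlap of 50%, and each library alone. The input libraries were not analysed here.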

Additional observations from a re-analysis of the deposited data

How the results depend on the processing

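No paired analysis was possible because no values of the input libraries were analysed here, and the results come from counts with no test. Of 99 recomputed counts, 62 stayed within 1.5 times the main count and 37 did not. With each library alone in place of shared regions, the count ranged from 7 to 14 for the 68 members and from 5 to 7 for the variants. It ranged from 5 to 8 for histone mRNA genes, from 11 to 16 for chaperones and from 1 to 9 for S-phase genes. The higher value is that of replicate 2 each time. Under the same change the share of all protein-coding genes went from 16% to 19.4% in replicate 1 and 30.4% in replicate 2. With a 1 kb window, 5 of the 68 members held a shared region, and the count was 1 for the chromosome 3 cluster, 0 for H3 and 2 for the variants. At this window 13.9% of all protein-coding genes held a shared region. With a 10 kb window the counts were 10 for all members, 3 for the chromosome 13 cluster, 4 for the chromosome 3 cluster, 2 for H2A, 1 for H2B and 3 for H3, and 13 members had a replicate 1 peak. At 10 kb, 19.9% of all protein-coding genes held a shared region and 23.9% had a replicate 1 peak.

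A stricter call threshold left few members. With a −log10 q of at least 5 in both lists, 1 member, H1f2, had a shared region (all protein-coding genes 7.93%), as did 1 H1 gene and 0 H2A, H3 and H4 genes, 0 genes of the chromosome 3 cluster and 0 outside the clusters. In single lists, 1 member had a peak in replicate 1 (all protein-coding genes 9.76%) and 7 in replicate 2 (all protein-coding genes 22.2%). Among the top 1000 peaks of each list, 0 members had a shared region (all protein-coding genes 2.91%), and so 0 in each cluster, outside them and in H1, H2A, H3 and H4. In single lists, 1 member had a peak in replicate 1 (all protein-coding genes 5.79%) and 0 in replicate 2 (all protein-coding genes 5.37%). Giving each peak to its nearest gene end alone left 9 members with a replicate 2 peak, 1 gene of the chromosome 3 cluster and 0 H3 genes with a shared region. Counted this way, 24.9% of all protein-coding genes had a replicate 2 peak and 12.7% held a shared region. Counts from annotated starts, and without the H1 genes outside the clusters, were added after seeing the data. From starts, a shared region lay within 3 kb of 6 of 63 members (all protein-coding genes with a start 16%). Within 1 kb it was 4 of 63 (all protein-coding genes with a start 15.5%). Without those H1 genes, 4 of 64 members held a shared region within 3 kb of a gene end (all protein-coding genes 16%). The shared regions other than that of H1f2 thus rest on pileups of 11 to 22, and a member whose pileup fell below the weakest called ones, 10 and 11, was not detectable at this depth. Where the background is higher, a larger pileup is needed. At H4c8 a replicate 2 pileup of 17 over a background of 5.11 had a −log10 q of 2.14.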

Other observations

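The chromosome 13 histone cluster also holds a large group of tRNA genes, which RNA polymerase III transcribes. Of 77 tRNA genes between its first and last histone gene, 0 held a shared region, 2 had a peak of replicate 1 within 3 kb and 3 had a peak of replicate 2. Of all protein-coding genes, 16%, 19.4% and 30.4% did. The shares over all tRNA genes were not counted, and neighbouring tRNA genes can be counted with the same peak. Whether these counts are low for tRNA genes was therefore not tested. The replicate 2 peak at H4c8 lay 958 bp from the tRNA gene n-TMcat9.

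The 3 pseudogenes with histone symbols, which were not members, had no peak within 3 kb. The nearest peaks in replicates 1 and 2 were 190514 and 190521 bp from H2ac14, 6042 and 5997 bp from H2ac5-ps, and 102508 and 7625 bp from H1f11-ps.

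The closest pairs of promoter windows beyond those of the chromosome 3 cluster were H2ac23 with H2ac24, H4c17 with H4c18 and H4c11 with H4c12, the last with 274 of 286 aligned bases identical. The H4c11 and H4c12 genes had no peak in either list, the nearest lying 204106 and 219217 bp away in replicate 1 and 204113 and 194463 bp away in replicate 2.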
